A study of Mus musculus with 8 samples.

Results

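The genes described here are 10 genes of antigen presentation by the major histocompatibility complex (MHC), read by 12 probes on 30 spots of each array. They are H2-K1, H2-D1, B2m, Tap1, Tap2 and Tapbp of the class I pathway and H2-Aa, H2-Ab1, H2-Eb1 and Cd74 of the class II pathway. They were taken by gene name from the 30175 gene names and 39429 probes of the array, with earlier results of these data known. Of these genes 8, with 10 probes, lie on chromosome 17, the chromosome of Brd2, and B2m (chromosome 2) and Cd74 (chromosome 18) lie elsewhere.

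RNA came from the striatum of 8 adult male C57Bl/6J mice, 4 wildtype and 4 Brd2+/-, with no treatment named. Brd2 encodes a bromodomain protein that reads acetylated histones, and the mutant allele holds a gene-trap vector. The mice came from matings of heterozygous parents at backcross generation 7, which the labels equate with 99% C57Bl/6J on average. The labels name neither the strain nor the cell line in which the trap was made. The sources describe the tissue as striatum, as prefrontal cortex and, in the free description, as left atrium of the heart.

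Each of the 4 Agilent 2-colour arrays held 2 mice of the same genotype. Replicates 1 and 3 of each group were labelled with Cy3 and replicates 2 and 4 with Cy5, so genotype varied only between arrays, 2 against 2. Between 41.6% and 63.1% of probes stood well above background in a sample, and the median spot was 3.72 to 10.5 times as bright as its local background. No spot was saturated. Precision throughout is limited by there being 4 arrays.

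MHC class I molecules are cell-surface proteins that show peptides from inside the cell to CD8 T cells. A heavy chain such as H2-K1 or H2-D1 pairs with the light chain B2m, and the peptides are cut by the proteasome, pumped into the endoplasmic reticulum by Tap1 and Tap2 and loaded with the help of Tapbp (tapasin). Class II molecules pair an alpha with a beta chain, travel with the invariant chain Cd74 and show peptides from endocytosed material to CD4 T cells. In the resting brain class II is known from few cells, mainly macrophages at the borders, dendritic cells and some microglia. The class II genes, Tap1, Tap2 and the immunoproteasome genes Psmb8 and Psmb9 lie next to Brd2 in the mouse MHC. A chromosome segment around a selected insertion tends to be kept through backcrossing, which is why the genes near Brd2 were set beside B2m and Cd74.

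The identity of a probe matters in this gene family, because class I genes resemble each other and H2-Ab1 was read by 2 probes at almost the same place. The sequences below show both cases, with positions counted from 1 at the 5′ end of the probe. The H2-Ab1 probes A_55_P1962747 (chr17:34406296-34406355, mm9, plus strand) and A_55_P2146560 (chr17:34406305-34406363, mm9, plus strand) share 51 bases with 1 difference, T51C of the first against the second. Capitals mark that base in a shared stretch of 30 bases.
H2-Ab1 A_55_P1962747: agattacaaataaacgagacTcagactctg
H2-Ab1 A_55_P2146560: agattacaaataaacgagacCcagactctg

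The second H2-K1 probe, A_55_P2049647 (chr17:34133984-34134043, mm9, minus strand), holds a run of 29 bases that is also found in a probe for H2-T23, a class I gene farther along the MHC. Capitals mark that run, at positions 15 to 43.
H2-K1 A_55_P2049647: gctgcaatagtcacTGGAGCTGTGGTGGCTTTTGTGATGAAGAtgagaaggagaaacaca

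A signal of this probe can therefore include related class I transcripts. Which base of the H2-Ab1 pair the C57Bl/6J genome carries was not examined here.

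None of the 7 antigen presentation genes that could be tested differed detectably between the genotypes. Of the 12 probes, 10 passed the filter on dim probes (a signal well above background in 4 or more samples), 8 did so in every sample, and 9, of 7 genes, also had an unflagged value in every sample and were tested. With limma and Benjamini-Hochberg adjustment over all 18393 probes tested, none of the 9 passed an adjusted p of 0.05, and none passed an unadjusted p of 0.05. The background was 0% of all probes at the adjusted threshold and 7.97% at the unadjusted one, 3.89% higher and 4.08% lower in the heterozygous mice. For each of the 9 probes the ranges of the genotypes overlapped. Over all probes 16.9% did not overlap, and 9 probes are too few to be set apart from that share. The adjusted p-values of the 9 probes lay between 0.895 and 0.997 and the unadjusted ones between 0.330 and 0.941. The standard errors of 0.256 to 0.605 log2 units leave room for sizeable differences in either direction, as the intervals below show, so these tests do not show that the genotypes were alike.

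**Figure D1:**
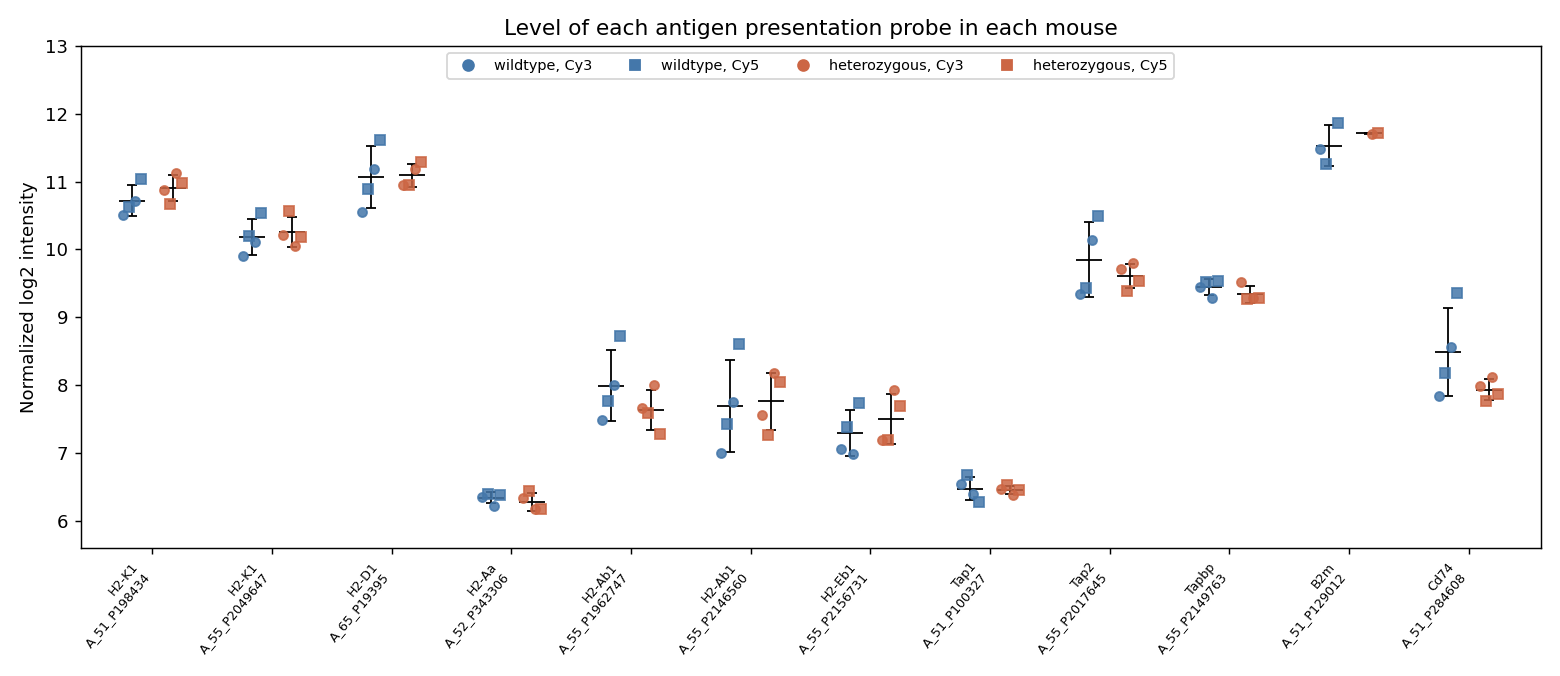
Normalized log2 intensity of the 12 antigen presentation probes in each mouse, with wildtype in blue, heterozygous in orange, circles for Cy3 and squares for Cy5. Bars give the mean and SD of each group (n = 4, for B2m n = 3 and 2). The genotypes overlap for every probe tested, and Tap1 and H2-Aa lie below 7 in all mice.

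Among the class I heavy chains, H2-K1 was read by A_51_P198434 (chr17:34133055-34133114, mm9, 119 kb from Brd2). It stood at 10.51, 10.63, 10.71 and 11.04 log2 units in wildtype replicates 1 to 4 and at 10.87, 10.66, 11.12 and 10.97 in heterozygous replicates 1 to 4. The highest value was heterozygous and the lowest wildtype, and the groups overlapped between them. The difference was 0.19 (SE 0.32, 95% interval −0.53 to 0.91), a ratio of 1.14 (0.691 to 1.88). The second H2-K1 probe gave 9.90, 10.20, 10.11 and 10.54 in wildtype and 10.21, 10.57, 10.05 and 10.18 in heterozygous mice. Its difference was 0.06 (SE 0.26, 95% interval −0.51 to 0.64), and both groups spanned almost the same range.

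The array carries H2-K1 probe A_51_P198434 on 10 spots, which shows how precisely a probe is read on an array. The SD over the unflagged spots of a sample was 0.305 to 0.916 log2 units, and the brightest and dimmest spot differed by 0.790 to 2.36. The channels of an array moved together from spot to spot. Across spots, which share the array and are not replicates, the correlation between the channels was 0.979 to 0.992 on the 4 arrays. The difference between the channels varied far less, with an SD over spots of 0.069 to 0.18. The same holds over the 199 probes spotted 10 times and detected in every mouse, with a median SD over spots of 0.407 and of 0.085 for the difference between channels. H2-K1 was the 9th most variable of them.

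Of the H2-K1 spot readings 14 carried an outlier flag, so each sample's mean rests on 7 to 9 spots, and not on the same spots in each sample. The genotype difference at single spots turned on which spots were read. At the 4 spots with an unflagged reading in every mouse it was 0.28 to 0.79, with heterozygous mice higher at each and a median of 0.50. Over all 10 spots with flagged readings kept it ran from −0.87 to 0.79, with 6 higher and 4 lower and a median of 0.23. The mean over the unflagged spots, 0.19 as given above, is the tested value, and with all flagged spots kept it was 0.12.

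**Figure D2:**
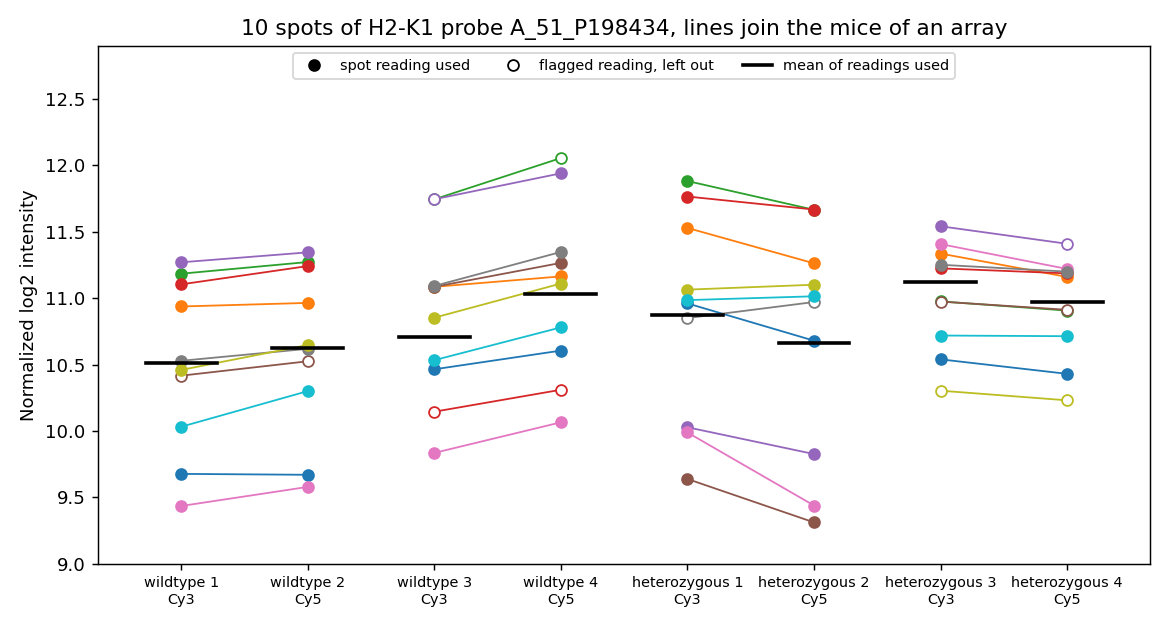
Normalized log2 intensity at each of the 10 spots of H2-K1 probe A_51_P198434 in the 8 mice, 1 colour per spot, with lines joining the mice of an array. Open circles are the 14 flagged readings and black bars the means of those used, and the spots of a sample spread wider than the means of the mice.

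H2-D1, the other classical class I heavy chain of this strain, lies farthest from Brd2 of the chromosome 17 genes described, at 1151 kb (A_65_P19395, chr17:35403886-35403945, mm9). Its level was 10.56, 10.90, 11.19 and 11.62 in wildtype and 10.96, 10.94, 11.18 and 11.29 in heterozygous mice. The heterozygous values all fell inside the wildtype range. The difference was 0.02 (SE 0.33, 95% interval −0.71 to 0.76).

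B2m, the light chain shared by all class I molecules, has 1 probe (A_51_P129012, chr2:121978401-121978460, mm9) on 1 spot. That spot was flagged as an outlier in wildtype replicate 3 and heterozygous replicates 1 and 2, and B2m was therefore not in the test. The unflagged values were 11.48, 11.25 and 11.86 in wildtype replicates 1, 2 and 4 and 11.71 and 11.71 in heterozygous replicates 3 and 4. The heterozygous values lay within the wildtype range. The flagged readings were 11.81 in the wildtype mouse and 10.16 and 9.68 in the heterozygous mice. The choice decides the sign, since the difference was −0.79 with flagged spots kept and 0.09 with flagged samples treated as missing, and neither passed the test.

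Of the peptide transporter, Tap2 was measurable and Tap1 was not. Tap1 (A_51_P100327, chr17:34330854-34330913, mm9, 78.4 kb from Brd2) was also spotted 10 times. It read 6.54, 6.67, 6.39 and 6.28 in wildtype and 6.46, 6.53, 6.39 and 6.45 in heterozygous mice, and was well above background in 1 sample, heterozygous replicate 2. It was not tested, since its level has only an upper bound in the other samples. Tap2, the partner subunit (A_55_P2017645, chr17:34353116-34353175, mm9, 101 kb from Brd2), read 9.34, 9.43, 10.14 and 10.49 in wildtype and 9.71, 9.39, 9.79 and 9.54 in heterozygous mice. The wildtype arrays differed from each other by more than the genotypes did, with replicates 3 and 4 high. The difference was −0.24 (SE 0.41, 95% interval −1.17 to 0.69). Without the array of wildtype replicates 3 and 4 it was 0.22.

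Tapbp, the tapasin that bridges class I to the transporter (A_55_P2149763, chr17:34065963-34066022, mm9, 187 kb from Brd2), was the steadiest of the 9 probes tested by its wildtype SD of 0.12. It read 9.45, 9.53, 9.28 and 9.53 in wildtype and 9.52, 9.26, 9.29 and 9.28 in heterozygous mice. Heterozygous replicate 1 stood apart from the other heterozygous mice, at the height of the wildtype values. The difference was −0.11 (SE 0.28, 95% interval −0.75 to 0.53).

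Of the 4 class II chain probes on chromosome 17, 1 was well above background in all 8 samples. H2-Aa, the alpha chain of I-A (A_52_P343306, chr17:34421285-34421344, mm9, 169 kb from Brd2), was well above background in none of the 8 samples, with readings of 6.17 to 6.43. It was not tested. Its partner, the beta chain H2-Ab1, was well above background with both probes. A_55_P1962747 read 7.49, 7.76, 8.0 and 8.72 in wildtype and 7.66, 7.59, 8.0 and 7.28 in heterozygous mice. A_55_P2146560, well above background in 7 samples, read 6.99, 7.42, 7.75 and 8.60 in wildtype and 7.56, 7.26, 8.17 and 8.04 in heterozygous mice. With either probe wildtype replicate 4 was the highest of all mice.

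The differences of the H2-Ab1 probes were −0.36 (SE 0.60, 95% interval −1.73 to 1.01) and 0.07 (SE 0.59, 95% interval −1.26 to 1.39), so the probes gave opposite signs within wide errors. Since they share nearly all their sequence, they were also set against each other within each sample. The second minus the first, that is the probe with C minus the probe with T at the base shown above, was −0.49, −0.34, −0.25 and −0.12 in wildtype and −0.10, −0.33, 0.17 and 0.76 in heterozygous mice. The heterozygous mean was higher by 0.43, with overlapping groups, chiefly through the mice of 1 array. A two-sided exact permutation test gave p = 0.114 over samples and p = 0.667 over arrays, for which the smallest possible values are 0.0286 and 0.333.

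H2-Eb1, the beta chain of I-E (A_55_P2156731, chr17:34453075-34453134, mm9, 201 kb from Brd2), was well above background in 6 samples. It read 7.06, 7.38, 6.99 and 7.74 in wildtype and 7.19, 7.19, 7.92 and 7.70 in heterozygous mice. The groups shared most of their range, and the difference was 0.21 (SE 0.46, 95% interval −0.82 to 1.24). The highest reading, that of heterozygous replicate 3, was not well above background, and without that mouse the difference was 0.054. C57Bl/6 mice are known to lack a working alpha chain of I-E, and the probe annotated as H2-Ea-ps read 5.81 to 6.02 and was well above background in no sample.

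Cd74, the invariant chain (A_51_P284608, chromosome 18), had the largest difference of the 9 probes tested, and it too missed the test. It read 7.84, 8.17, 8.56 and 9.35 in wildtype and 7.98, 7.76, 8.11 and 7.86 in heterozygous mice. The heterozygous mice lay close together near the lower wildtype values. The difference was −0.55 (SE 0.54, 95% interval −1.77 to 0.66, unadjusted p = 0.330, adjusted p = 0.895 with limma). It rested on wildtype replicates 3 and 4, since it was −0.33 without replicate 4 and −0.08 without their array. In bulk tissue fewer cells of a type and less RNA per cell cannot be told apart.

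The mice that shared an array and a genotype differed in a common direction across these genes. Wildtype replicate 4 (Cy5) exceeded replicate 3 (Cy3) at all 9 probes tested, by 0.25 to 0.85 and a median of 0.43, and replicate 2 exceeded replicate 1 at all 9, by 0.075 to 0.43 and a median of 0.30. On the heterozygous arrays the Cy5 mouse was lower at 8 of 9 probes (median −0.21) and at 7 of 9 (median −0.15). Between wildtype replicates 3 and 4 the class II probes and Cd74 differed most, by 0.72 and 0.85 for H2-Ab1, 0.75 for H2-Eb1 and 0.79 for Cd74. All 4 values lay above the 95th percentile of 0.53 over all probes on that array. Within an array each mouse had its own dye, so mouse and dye cannot be told apart on that array. Both dyes were used on every array, and the direction differed between the wildtype and the heterozygous arrays. The cause was not tested.

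**Figure D3:**
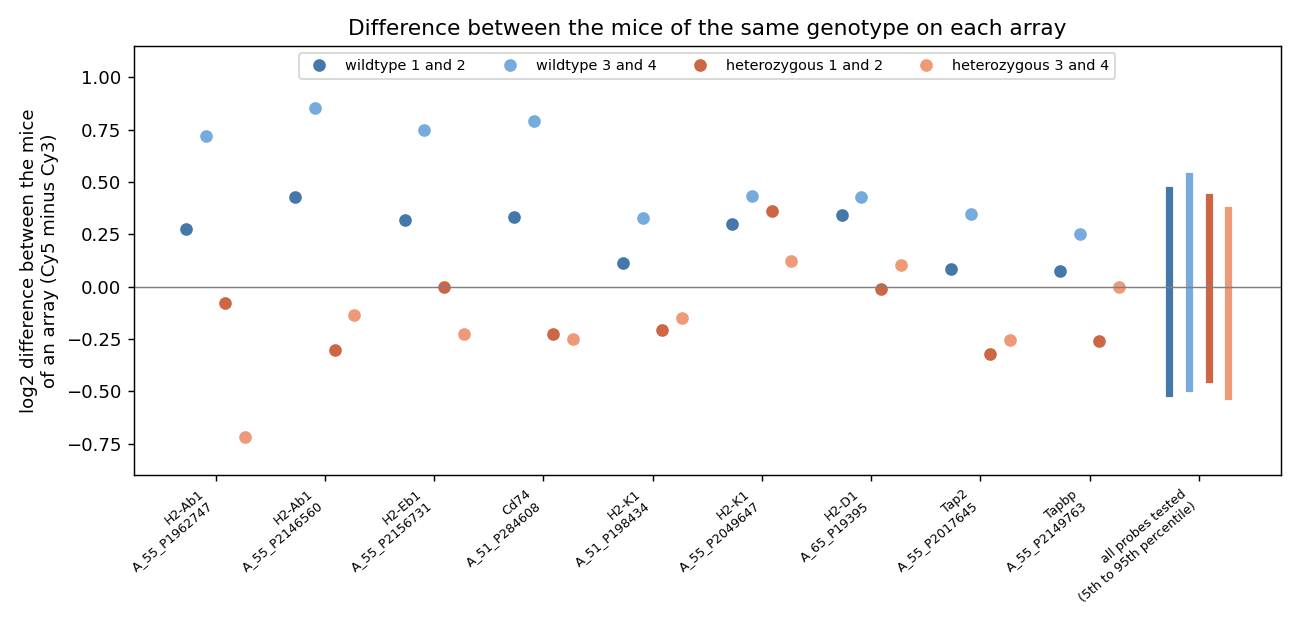
Log2 difference between the mice of an array (Cy5 minus Cy3) for the 9 probes tested, 1 colour per array, with the 5th to 95th percentile of all probes tested as bars at the right. All 9 probes lie above 0 on both wildtype arrays, and most lie below 0 on the heterozygous arrays.

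The sign of the genotype difference turned with the dye for 7 of the 9 probes tested. It stayed negative for Cd74 (−0.15 among Cy3 mice and −0.95 among Cy5 mice) and positive for H2-K1 probe A_55_P2049647 (0.13 and 0.0035). The study's design text compares samples of like dye and averages the results. Among the Cy3 mice alone, all 8 chromosome 17 probes were higher in heterozygous mice, with a median difference of 0.16, while among the Cy5 mice 1 of 8 was higher and the median was −0.20. Over all probes the medians were −0.01 and −0.03. None of these member values passed an unadjusted p of 0.05 with limma, and each dye holds 2 mice per genotype.

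Markers of other cell types differed between the same mice. The list of border macrophage markers had 3 of 8 genes above the filter, with a summed linear intensity of 634 to 1362 in wildtype and 580 to 744 in heterozygous mice. The 3 had a median difference of −0.05, with 1 higher and 2 lower. Of these Pf4, a chemokine of platelets and macrophages picked after its values were seen, read 7.40, 7.51, 7.95 and 9.71 in wildtype and 7.06 to 7.30 in heterozygous mice, with wildtype replicate 4 highest as for Cd74. Lyve1 and Cd163 were well above background in no sample. Of the dendritic and B cell markers 4 of 10 passed the filter (663 to 1039 against 557 to 944), and the B cell gene Ms4a1 and the dendritic genes Itgax and Xcr1 were well above background in none. The microglial list was measured with 15 of 15 genes (105960 to 146683 against 100441 to 111548), and its median difference over 13 tested genes was 0.07. The T and NK cell list had 4 of 8 genes on the array above the filter (6714 to 9339 against 7725 to 10194).

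Choroid plexus and blood markers varied widely between mice of both genotypes. Ttr, the transthyretin of the choroid plexus, read 6.64, 9.96, 15.27 and 17.35 in wildtype and 12.41, 12.18, 17.22 and 14.64 in heterozygous mice. The erythroid enzyme gene Alas2 was highest in wildtype replicate 4, at 11.88 against 8.18 to 10.15 in the other 7 mice. The choroid plexus list passed the filter with 9 of 9 genes (1559 to 179980 against 7562 to 161458) and the blood list with 7 of 7 on the array (41107 to 306775 against 50138 to 133776). The part of these cell types in the values of Cd74 and the class II genes was not tested. As a check of the tissue label, 11 of 11 striatal projection neuron markers present were detected above background in every mouse. The median difference of the 8 tested was 0.40, with 7 higher and 1 lower. Their mean was lowest in wildtype replicate 4, at 12.43 log2 units against 13.26 to 13.88 in the other mice. Of the cortical neuron markers 4 of 7 were detected in every mouse. The 6 tested had a median difference of −0.76, with 1 higher and 5 lower (summed linear intensity 1977 to 8985 in wildtype against 1841 to 2915 in heterozygous mice). Wildtype replicate 1 stood apart, with a mean over the 6 of 9.97 log2 units. That mean was 8.10 to 8.32 in wildtype replicates 2 to 4 and 7.73 to 8.61 in heterozygous mice. Of the atrial muscle markers 2 of 9 were detected in every mouse, with Nppa at 6.98 to 8.14.

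The members on chromosome 17 were set beside those elsewhere to ask whether the stretch around Brd2 stood apart. The median difference of the 8 chromosome 17 probes tested was 0.04, with 5 higher and 3 lower, against a median of −0.02 over all probes tested and a 5th to 95th percentile of −0.73 to 0.70. Elsewhere Cd74 alone was tested, at −0.55, which gave a contrast of 0.60 with chromosome 17 higher. The chromosome 17 median was near 0 and its sign was not stable. It was −0.065 with the scanner's own processed signals and −0.028 with the spatial trend removed. With 1 value per gene, that of its brightest probe, it was −0.042, with 3 of 6 genes higher. Leaving out single mice gave −0.068 (without wildtype replicate 3) to 0.11 (without wildtype replicate 4). That contrast was 0.28 when B2m entered with its flagged samples missing and 0.72 when B2m entered with flagged spots kept. It was 0.31 among Cy3 mice, 0.29 with those processed signals and 0.33 when wildtype replicates 3 and 4 were left out with their array. It is a description of 7 genes, with no test, and on the side of the other chromosomes it rests on Cd74 alone.

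Brd2 itself did not read lower in the mice labelled heterozygous. Probe A_55_P1958678 differed by 0.29 (SE 0.35), or by −0.27 when wildtype replicates 1 and 2 were left out, and probe A_55_P1953545 by 0.88 (SE 0.28, unadjusted p = 0.013, adjusted p = 0.502 with limma). Where the trap lies relative to these probes is not stated in the labels, and no check of the genotypes follows from them.

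No probe near Brd2 passed the adjusted test, nor did any probe elsewhere. Within 1 Mb on either side 87 probes of 75 genes were tested, and 7 of them (8.05%) had an unadjusted p under 0.05, against 7.86% on other chromosomes and 9.68% on the rest of chromosome 17 beyond 10 Mb. Within 5 Mb the share was 22 of 222 (9.91%), 15 higher and 7 lower, with a median difference of 0.02. The 7 probes within 1 Mb, picked by their values, read Zfp955b, Col11a2, Brd2, Psmb9 and H2-K2 higher and Zfp414 and Lsm2 lower. A second, brighter Zfp955b probe, A_52_P681705, had overlapping groups and a difference of 0.28 (SE 0.27). None of the 7 probes is annotated to any of the 10 genes named at the start. Of their genes, described below, Psmb9 also belongs to antigen presentation and H2-K2 carries a class I gene name. The differences of the 9 tested probes of those 10 genes lay within the 5th to 95th percentile of all probes.

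**Figure D4:**
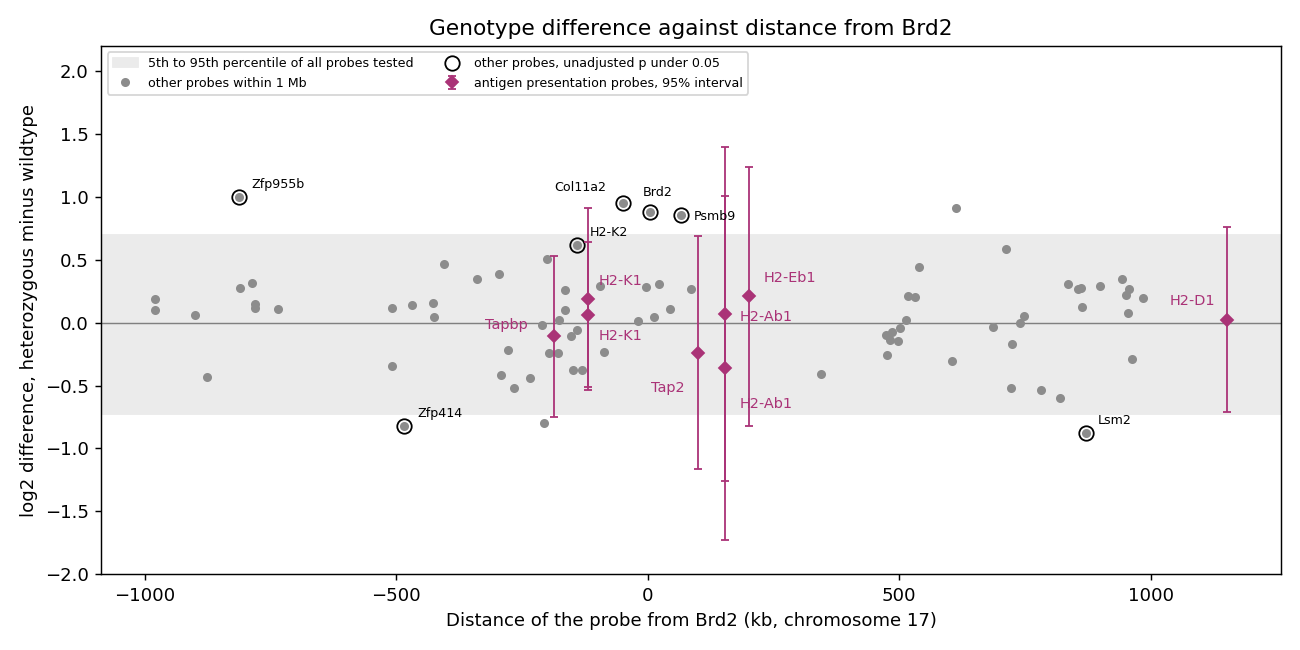
Log2 difference (heterozygous minus wildtype) against the distance of the probe from Brd2 in kb, for probes within 1 Mb and for H2-D1. Diamonds are the tested chromosome 17 probes of the 10 genes with 95% intervals, each of which includes 0. Grey dots are other probes, Psmb9 and H2-K2 among them. Rings mark an unadjusted p under 0.05 and the band spans the 5th to 95th percentile of all probes tested.

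The wider pathway was read from 4 lists with 81 genes, of which 78 were on the array and 53 were tested by their brightest probe. At an unadjusted p of 0.05, 4 genes were higher and 2 lower in heterozygous mice (11.3% against 7.97% over all probes), 13 had groups that did not overlap (16.9% of all probes did not), the median difference was 0.04 and none passed the adjusted test. The lists were chosen with earlier results of these data known and support no claim about the pathway.

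The immunoproteasome, whose subunits replace proteasome subunits under interferon, includes Psmb9, whose genotypes did not overlap. Psmb9 (A_51_P369803, chr17:34319174-34319233, mm9, 66.7 kb from Brd2) read 7.24, 7.57, 7.12 and 7.43 in wildtype and 8.36, 8.33, 8.09 and 8.01 in heterozygous mice. All heterozygous values were above all wildtype values, a difference of 0.86 (SE 0.29, unadjusted p = 0.017, adjusted p = 0.520 with limma). Under 28 alternative settings the sign held, with differences of 0.55 (spatial trend removed) to 1.08. The unadjusted p with limma was 0.080 with the scanner's processed signals and 0.13 with loess and no Aquantile. A second Psmb9 probe, A_55_P2038983, was well above background in no sample. Psmb8, another such subunit next to it, read 8.57 to 8.83 in wildtype and 8.94 to 9.10 in heterozygous mice, also without overlap, a difference of 0.27 (SE 0.25, unadjusted p = 0.318 with limma) that turned to −0.12 with the scanner's processed signals. Tap1, which was too dim to test, lies beside Psmb9, and in RefSeq (GRCm38.p6) the 300-base windows at the starts of both genes share 275 bases. In this list 1 of 4 tested genes had an unadjusted p under 0.05, against 7.97% of all probes, and groups did not overlap for 16.9% of all probes. The proteasome activator genes Psme2 and Psme1 had differences of −0.32 and −0.26. Another Psme2 probe, A_55_P1996862, was flagged in 4 mice and not tested, and its other readings ran the other way, at 11.67 and 11.70 in wildtype replicates 3 and 4 and 12.67 and 12.57 in heterozygous replicates 1 and 2.

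In the class I list 19 of 31 genes were tested, none at an unadjusted p under 0.05 by its brightest probe, with a median difference of 0.10. The lowest p-values among them were those of the heavy chain gene H2-T10 (−0.48), the loading chaperone Calr (0.49) and the heavy chain gene H2-Q8 (−0.31). Nlrc5, the transactivator of class I genes, was well above background in 1 and 3 samples with its probes and was not tested.

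The class I gene H2-K2, a neighbour of H2-K1, was picked because its overlapping probes disagreed. A_51_P502456 and A_55_P2051334 share 39 bases with the differences C48A and T57C of the first against the second. The first probe differed by 0.62 (SE 0.27, unadjusted p = 0.048) and the second, brighter one by −0.06 (SE 0.37). The first minus the second was −1.29, −1.39, −1.71 and −1.69 in wildtype and −0.61, −0.49, −1.18 and −1.09 in heterozygous mice. These groups did not overlap, and the heterozygous mean was higher by 0.68. The two-sided exact permutation p was 0.0286 over samples and 0.333 over arrays, in both cases the smallest the design allows. The pair was singled out after these values were seen, so the p-values describe it and give no support for a genotype difference. The permutation over samples also ignores that mice share arrays. The first H2-K2 probe shares a run of 28 bases with a probe of H2-Q7.

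In the class II list 11 of 21 genes were tested, with a median of 0.02. At the unadjusted threshold 1 was higher and 1 lower (7.97% of all probes passed it). Both were without overlap of the groups, as for 16.9% of all probes. Sppl2a, the protease that degrades the remnant of Cd74, was higher in heterozygous mice at the unadjusted threshold only (0.80, SE 0.27, adjusted p = 0.511 with limma), with values of 9.02 to 9.31 against 9.80 to 10.09. The costimulatory gene Cd80 was lower at that threshold (−1.06, SE 0.46), with 7.99 to 9.53 against 7.50 to 7.97. The cathepsin gene Ctss (0.44) and the peptide exchanger H2-DMa (0.30) were the next by p. Ciita, the transactivator of class II genes, read 6.18 to 6.50 and was well above background in no sample.

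In the interferon list 19 of 24 genes were tested, 2 higher and 1 lower at the unadjusted threshold (7.97% of all probes passed it), with a median of 0.00. By their brightest probes the GTPase Irgm1 (0.90, SE 0.34) and the transcription factor Stat2 (0.67, SE 0.28) were higher and the receptor Ifnar1 lower (−0.80, SE 0.32), each without overlap of the groups, as for 16.9% of all probes. A second Irgm1 probe, A_55_P1981479, had overlapping groups and a difference of 0.27 (SE 0.29). The next by p was the GTPase Iigp1 (0.61, SE 0.33). By sign alone, 11 of the 19 were higher and 8 lower.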

How the data were processed

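Total RNA of each mouse was amplified and labelled with Cy3 or Cy5, per the labels' protocols. The scanner files hold raw intensity of spot and local background and a processed intensity per channel, per the file headers, from Agilent Feature Extraction 11.0.1.1. The authors' deposited value table holds a linear ratio, the background-subtracted median spot signal over its column median, as found by setting it against the scanner values. Its scale is not stated, each column has a median of 1, and it is uncentred across samples. It served as an alternative. Other steps of the authors were not given in the sources used here.

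The own channel of each sample was processed with normexp (offset 50), loess within arrays and Aquantile between arrays (limma 3.58.1, R 4.3.3). Outlier-flagged spots were dropped and replicate spots averaged. The log2 values come from these deposited intensities. Of the probes, 22282 were well above background in at least 4 samples, 3889 of these were left out for flagged spots, and 18393 were tested with lmFit and eBayes, with dye as covariate and array as random block (correlation 0.81). This counts both mice of an array toward the degrees of freedom, so intervals may be too narrow. The Benjamini-Hochberg threshold was 0.05, and single contrasts were tested by exact permutation over samples and arrays. The fit was tested on simulated data.

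Coordinates are on mm9, per the file headers. Genes were named by the file, and 27228 probes by a RefSeq table of GRCm38.p6, from which the windows at gene starts also come. A genome of mm9 was not used here, so exons and UTRs are not given.

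The genes, lists and tests were chosen with earlier results of these data known. Named were all member probes, Brd2, 5 chosen pathway genes, up to 4 more per pathway list by unadjusted p and cell type markers. H2-K2 and the other neighbours of Brd2 were named after their values were seen, as were Pf4, Ttr, Alas2 and Nppa.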

Additional observations from a re-analysis of the deposited data

Results flagged for a closer look

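Tapbp in heterozygous replicate 1, at 9.52 log2 units, stood far from the other heterozygous mice, which lay between 9.26 and 9.29. Its gap to the nearest of them was 0.91 of the range of the group. Of 30 groups of 4 mice examined this way 1 was set apart, and chance alone sets apart about 1 in 20 such groups. Heterozygous replicate 2 shared its array and read 9.26. Without heterozygous replicate 1 the genotype difference of Tapbp kept its sign, within the range of −0.20 to −0.03 over all mice left out in turn.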

How the results depend on the processing

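No probe of the 10 genes passed an adjusted or an unadjusted p of 0.05 with limma in any of 254 values under 28 alternative settings. Among these values the lowest unadjusted p was 0.068. Direction held less well, since 29 of these values turned sign. Unless a cause is named, the cause was not tested. Without 1 array a genotype rests on 1 array, and the dim class II probes and Tap1 are limited by signal over background.

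Over all probes 0 passed the adjusted test, 1466 had an unadjusted p under 0.05, and the called count was 1 with the deposited value table. Psmb9 (adjusted p = 0.036) and Brd2 probe A_55_P1953545 (adjusted p = 0.046) were called by limma with no array block. That fit treats mice sharing an array as independent, despite their correlation of 0.81, and the called count there was 529. It was 17 without the array of wildtype replicates 1 and 2, 14 without that of wildtype replicates 3 and 4 and 5 without that of heterozygous replicates 3 and 4, and 0 to 1 when single mice were left out, the 1 without wildtype replicate 4.

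The contrast of chromosome 17 genes with those elsewhere, 0.60, was 0.29 with the scanner's processed signals, 0.31 with Cy3 samples only. Leaving out the array of wildtype replicates 3 and 4 gave 0.33. It was 0.28 with flagged samples missing, a setting added after seeing the data that brings in B2m. The 22 probes within 5 Mb of Brd2 with an unadjusted p under 0.05 became 12 with the processed signals, 4 with loess and no Aquantile, 40 of 426 with no filter on dim probes, 13 of 145 with probes well above background in all samples, 51 with no array block, 10 with the spatial trend removed, 14 within 2 Mb and 39 within 10 Mb.

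With Cy5 samples only, the sign turned for H2-K1 A_51_P198434 (−0.012), H2-D1 (−0.14), H2-Ab1 A_55_P2146560 (−0.36) and H2-Eb1 (−0.11). With Cy3 samples only it turned for H2-Ab1 A_55_P1962747 (0.089), Tap2 (0.014), Tapbp (0.036) and H2-K2 A_55_P2051334 (0.14). With the spatial trend removed H2-D1 read −0.0088, H2-Ab1 A_55_P2146560 −0.013, H2-Eb1 −0.044 and that H2-K2 probe 0.085. With the processed signals H2-Eb1 read −0.17, Psmb8 −0.12 and the H2-K2 probe 0.31, and with loess and no Aquantile H2-D1 read −0.0048.

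Without the array of wildtype replicates 1 and 2, H2-K1 A_55_P2049647 read −0.074, H2-D1 −0.31, H2-Ab1 A_55_P2146560 −0.41 and Brd2 A_55_P1958678 −0.27. Without that of wildtype replicates 3 and 4, H2-Ab1 A_55_P1962747 read 0.0091, Tap2 0.22 and the H2-K2 probe 0.21. Without that of heterozygous replicates 1 and 2, H2-K1 A_55_P2049647 read −0.071 and the H2-K2 probe 0.32. Without that of heterozygous replicates 3 and 4, H2-D1 read −0.12, H2-Ab1 A_55_P2146560 −0.28 and H2-Eb1 −0.10. Leaving out single mice gave −0.038 to 0.11 for H2-D1, −0.11 to 0.30 for H2-Ab1 A_55_P2146560 and −0.15 to 0.035 for the H2-K2 probe. The sign turned without any 1 of the 4 Cy3 mice (replicates 1 and 3 of either group) for H2-D1 and H2-Ab1, and without wildtype replicate 4 or heterozygous replicate 2 for H2-K2.

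Same-numbered mice of the groups deviated together with correlations of 0.039, 0.26, 0.16 and 0.12, and the number coincides with the dye, so the numbers were not taken to pair the mice. The replicate block left the count of called probes at 0.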
